A study of Mus musculus with 6 samples.

Results

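Poly(A)-selected RNA from mouse embryonic stem cells that made DGCR8 with the E518K substitution was set against RNA from cells with no DGCR8, across all genes. The comparison takes 4 of the 6 libraries of the series, chosen by their labels, with 2 libraries in each group. It asks which transcripts differ between cells with the mutant protein and cells without any. The other 2 libraries, from cells with induced wild-type DGCR8, entered no test and are given for scale.

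The null group (KO) had the genotype DGCR8 -/- and was not transfected. Both of its libraries, 1 and 3, carry clone number 261 in their titles, so they are repeat libraries of 1 clone. The E518K group had the genotype label DGCR8 E518K/E518K and 2 clones, 8 and 15, which received the vector pSB ET iE-FlagDGCR8-E518K for a Flag-tagged protein together with pCMV(CAT)-SB100X, a plasmid for the transposase. The wt group (genotype DGCR8 wt/wt, clones 12 and 16) received the wild-type version of the same vector. Every culture had 300 ng/mL doxycycline for 48 h, KO cells included. All were kept without feeder cells on gelatin, with serum, leukemia inhibitory factor (LIF) and the 2i inhibitors CHIR99021 (against GSK3) and PD0325901 (against MEK). The vector, the protein and the choice of clone differ together between KO and E518K, so their parts cannot be told apart, and the sources used here do not say from which line the transfected clones were made. With a single KO clone, the p values reflect only how far these libraries spread, which in KO may be technical.

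DGCR8 is the RNA-binding partner of the nuclease Drosha. Together they cut hairpins out of primary microRNA (miRNA) transcripts, and Dicer then trims them to mature miRNAs that lower target mRNAs through a short seed at their 5′ end. In embryonic stem cells the miR-290 and miR-302 clusters supply most of the miRNAs with 1 common seed, and these are known for lowering inhibitors of the G1 to S transition and of survival; let-7, which LIN28 blocks, is known for the opposite action in differentiating cells. The E518K substitution lies in the RNA-binding part of DGCR8 and is known from Wilms tumours.

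The mature sequences below, from RefSeq on GRCm38.p6, are shown because the seed matches in the next paragraphs are defined by them. Capitals mark the seed, bases 2 to 8. The first 3 come from the miR-290 cluster on chromosome 7 and share their seed with the miR-302 sequences from chromosome 3. The seed of miR-17 is shifted by 1 base against them, so that its matches can overlap theirs. The let-7 seed is unrelated.
mmu-miR-291a-3p: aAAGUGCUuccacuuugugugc
mmu-miR-294-3p: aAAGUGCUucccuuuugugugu
mmu-miR-295-3p: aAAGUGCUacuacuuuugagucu
mmu-miR-302b-3p: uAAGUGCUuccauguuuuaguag
mmu-miR-302d-3p: uAAGUGCUuccauguuugagugu
mmu-miR-17-5p: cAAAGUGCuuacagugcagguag
mmu-let-7a-5p: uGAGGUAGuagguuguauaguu

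A seed match is the letters AGCACTT on the mRNA strand, the reverse complement of the miR-291a seed, in the longest annotated 3′ UTR of a gene (GENCODE M21, GRCm38). The matches below are shown for 6 genes that were lower in E518K cells and for Lefty2, which was higher; capitals mark the match, and all lie in 3′ UTRs. The positions are chr9:116087769-116087792 on the minus strand for Tgfbr2, chr14:57691084-57691107 on the minus strand for Lats2 and chr8:46846650-46846673 on the plus strand for Irf2. They are chr8:91123816-91123839 for Rbl2, chr6:42281544-42281567 for Casp2, chr17:29100486-29100509 for Cdkn1a and chr1:180897903-180897926 for Lefty2, on the plus strand in each case. In 6 of the 7 the match is followed by an A, which makes it an 8mer; the exception is Casp2.
Tgfbr2: atatcaaaacctaaAGCACTTatt
Lats2: tacagtatggaaagAGCACTTatt
Irf2: gcaccttatcttgaAGCACTTaca
Rbl2: gtatttttcaataaAGCACTTata
Casp2: tgatataacctagaAGCACTTgtc
Cdkn1a: accgtgggtgtcaaAGCACTTagt
Lefty2: catcacccagtttaAGCACTTaca

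The 6 libraries held between 73642784 and 75121971 counts each, and the biological coefficient of variation over the 4 compared was 6.5%. Levels are given as counts per 1000000 (CPM), in the order KO 1 and 3, E518K 8 and 15, wt 12 and 16. A log2 fold change is that of E518K against KO and carries its standard error (SE) from an edgeR quasi-likelihood fit to these 4 libraries, n = 2 per group. A gene is called where its Benjamini-Hochberg adjusted p over all tested genes is below 0.05. Lengths implied by the deposited counts and TPM match whole gene spans, introns included, so a level is no measure of 1 gene against another. The sources used here do not say if counting used strand, so an overlapping gene may share reads. Of the genes named below, Arid4b, Polk, Trim71, Igf2bp3, Ccnd1, Pfkm, Adar and mt-Co3 overlap another annotated gene, as do those where the partner is named.

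Of 16194 genes tested, 9530 (58.8%) were called, 4826 (29.8%) higher and 4704 (29%) lower in E518K cells. Most differences were small: 5065 of the calls (53.1%) were below 1.5-fold. At least 2-fold were 730 higher genes (4.51%) and 1359 lower ones (8.39%), and at least 4-fold 176 and 277. The median over all genes was -0.02 and the 5th and 95th percentiles were -1.38 and 1.02. Between the E518K clones the median absolute difference over 12089 genes was 0.096 on the log2 scale, with 29 genes at least 2-fold apart; between the KO libraries it was 0.048, with 2 such genes. The E518K and KO libraries did not overlap in 13160 genes (81.3%), so that lack of overlap alone marks no gene out. Every count of list members below is to be read beside the 29.8% higher and 29% lower over all genes.

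**Figure D1:**
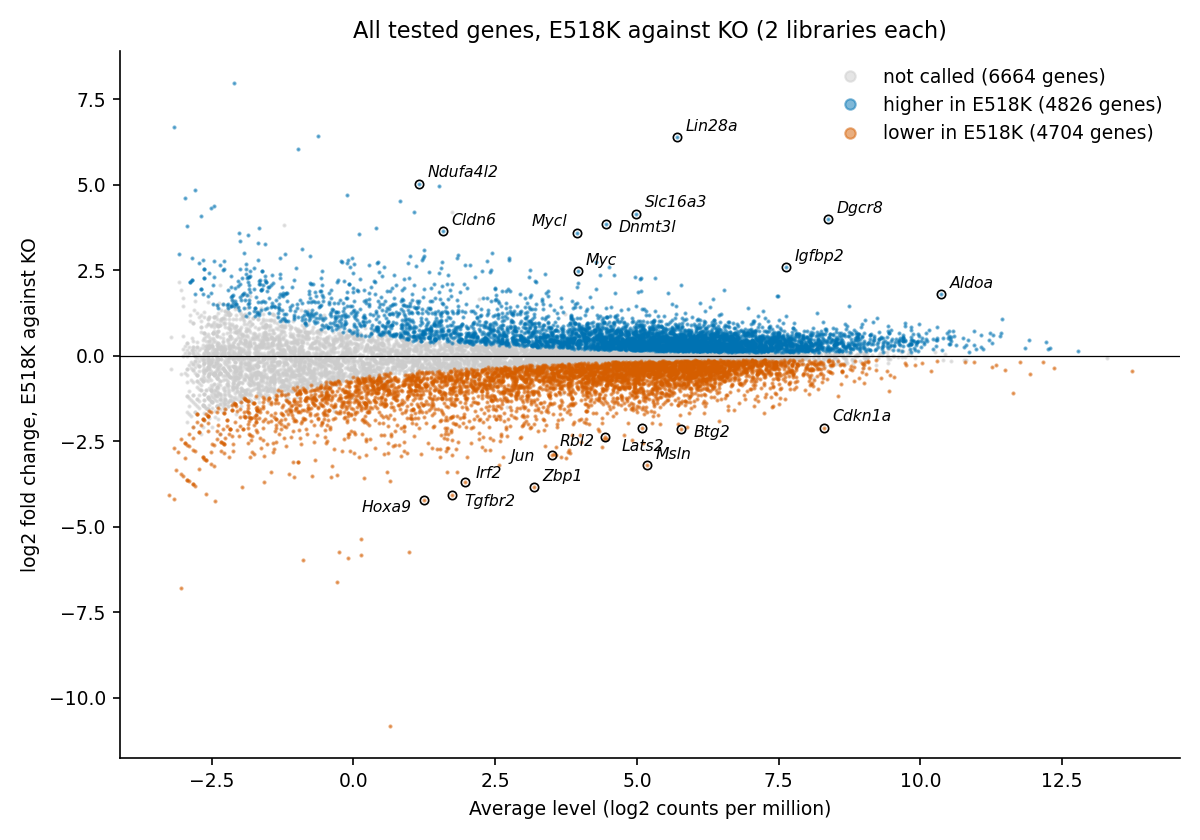
Each point is 1 of 16194 tested genes, with its average level (log2 CPM) on the x axis and the log2 fold change of E518K against KO on the y axis; blue genes were called higher, orange genes lower and grey genes were not called by edgeR, and 20 genes named in the text are circled. Lin28a lies at 6.41 and Tgfbr2 at -4.08; the steepest values at the left come from genes at or near 0 in 1 group, where the fitted value depends on the prior count.

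The label was checked first on Dgcr8 itself (chr16:18253948-18289246, ENSMUSG00000022718.12), whose count includes the transgene. It stood at 39.9 and 37.0 CPM in KO, 819.8 and 419.7 CPM in E518K and 196 and 996 CPM in wt. Both E518K clones lay above both KO libraries, and the clones differed from each other more than KO did. The counts cannot show the substitution, and the sources used here do not give the part of the gene that KO lacks, so the reads left in KO check nothing. The log2 fold change was 4.01 ± 0.49 (edgeR adjusted p = 0.0147). The call was lost without KO 1 or without KO 3, at 4.07 (adjusted p = 0.0858) without KO 1 and 3.96 (adjusted p = 0.0874) without KO 3. Trmt2a, which overlaps the span of Dgcr8, was at 49.4 and 50.6 CPM in KO and 72 and 71.1 CPM in E518K, a change of 0.52 ± 0.05.

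The 5 genes used as markers of the comparison, chosen with earlier results of these data known, were all called. Lin28a (chr4:134003330-134018841), which encodes a protein known to block the maturation of let-7, was at 1.19 and 1.22 CPM in KO, 114 and 90.5 CPM in E518K and 82.5 and 117 CPM in wt. Its log2 fold change of 6.41 ± 0.16 was the largest increase among genes whose average log2 CPM reached 1 (edgeR adjusted p = 2.04e-06). Both E518K clones reached the range of the wt clones, while both KO libraries stayed close to 1 CPM.

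Tgfbr2 (chr9:116084293-116175360), the type II receptor for TGF-beta, was at 6.11 and 6.03 CPM in KO, 0.361 and 0.356 CPM in E518K and 0.539 and 0.705 CPM in wt, a log2 fold change of -4.08 ± 0.18 (edgeR adjusted p = 1.48e-06). Its 3′ UTR holds 3 seed matches, of which 1 is printed above. Both clones lay below both wt libraries as well as below KO.

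Jun (chr4:95049034-95052222), a subunit of the AP-1 transcription factor, was at 20.3 and 19.0 CPM in KO, 2.72 and 2.58 CPM in E518K and 4.43 and 3.50 CPM in wt, with a log2 fold change of -2.89 ± 0.10 (edgeR adjusted p = 7.87e-07). Btg2 (chr1:134075170-134079120), a p53 target that slows proliferation, was at 89.9 and 87.8 CPM in KO, 20.7 and 19.9 CPM in E518K and 18.6 and 23.7 CPM in wt, and its log2 fold change was -2.13 ± 0.05 (edgeR adjusted p = 4.96e-07). Neither Jun nor Btg2 holds a miR-291a match in its longest 3′ UTR, and in both genes KO and E518K were well apart.

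Myc (chr15:61985391-61990374), the growth-promoting transcription factor, was at 4.47 and 4.89 CPM in KO and 23.8 and 28.4 CPM in E518K, against 17 and 14.8 CPM in wt. The log2 fold change was 2.48 ± 0.11 (edgeR adjusted p = 2.04e-06), and here both E518K clones lay above both wt clones.

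**Figure D2:**
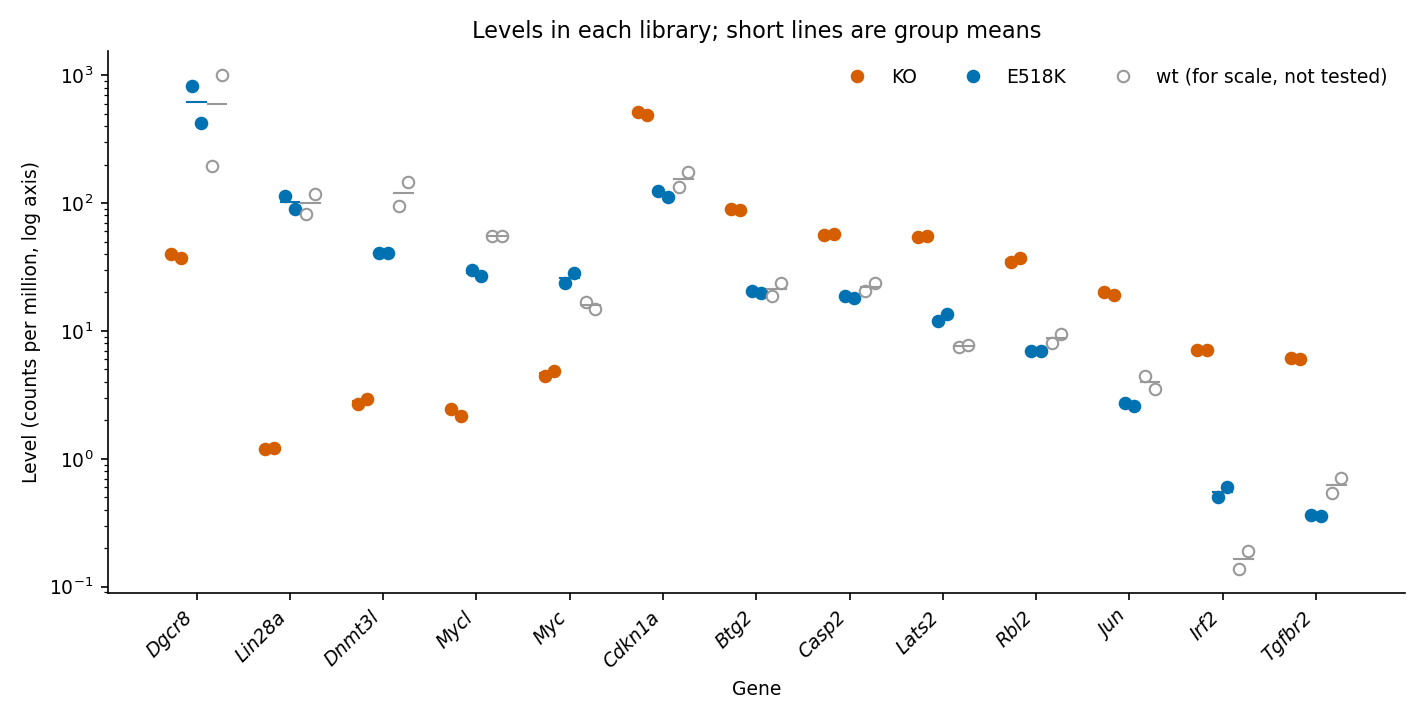
Level in CPM on a log axis (y) of 13 genes (x) in each library; orange points are KO, blue points E518K, open grey points wt (shown for scale and not tested), and short lines are group means. KO and E518K are apart in every gene shown, with Lin28a near 1 CPM in KO and at 114 and 90.5 CPM in E518K, and Tgfbr2 near 6 CPM in KO and at 0.361 and 0.356 CPM in E518K.

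Genes named in earlier work as targets of the miR-290 and miR-302 seed were mostly lower with E518K protein. The list rests on that work and not on the seed match, so a member need not hold a match. Like the other lists, it was chosen with earlier results of these data known. Of 20 tested, 15 were lower, 2 higher and 3 not called, with a median log2 fold change of -0.86 against -0.02 over all genes and 29% of all genes called lower. In 8 of the 15 the decrease was at least 2-fold. Tgfbr2, Irf2 and Nr2f2, an orphan nuclear receptor (-2.70 ± 0.24, edgeR adjusted p = 3.77e-05), had the largest decreases. Irf2, a repressor of interferon-stimulated genes that can also activate some, was at 7.07 and 7.09 CPM in KO, 0.499 and 0.603 CPM in E518K and 0.138 and 0.19 CPM in wt (log2 fold change -3.68 ± 0.17, edgeR adjusted p = 1.82e-06). E518K clones were far below KO and still above both wt clones.

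Among the other lower targets were Cdkn1a, Rbl2 and Lats2. Cdkn1a, the p21 inhibitor of cyclin-dependent kinases, was at 518.1 and 489.9 CPM in KO, 124 and 112 CPM in E518K and 133 and 174 CPM in wt, and fell by 2.09 on the log2 scale (SE 0.06). Rbl2, the pocket protein p130, was at 34.8 and 37.3 CPM in KO, 6.96 and 6.92 CPM in E518K and 8.06 and 9.44 CPM in wt; it overlaps Aktip, and its log2 fold change was -2.38 ± 0.08. Lats2, a kinase of the Hippo pathway, went from 54.4 and 54.8 CPM in KO to 11.9 and 13.5 CPM in E518K, with wt at 7.47 and 7.76 CPM and a log2 fold change of -2.10 ± 0.08. For Cdkn1a and Rbl2 both E518K clones were below both wt clones, whereas for Lats2 they were above them.

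Casp2, an initiator caspase, was at 55.8 and 57.8 CPM in KO and 18.7 and 18.1 CPM in E518K (log2 fold change -1.62 ± 0.06). Arid4a and Arid4b, subunits of a histone deacetylase complex, changed by -1.07 ± 0.07 and -0.80 ± 0.10, and Ei24 by -0.75 ± 0.06. For Cdkn1a, Rbl2, Lats2, Casp2, Arid4a, Arid4b and Ei24 the edgeR adjusted p did not exceed 0.000436. The 2 exceptions were Lefty2 and Wee1. Lefty2, a secreted inhibitor of Nodal, was higher, at 335 and 341 CPM in KO and 684 and 616 CPM in E518K (log2 fold change 0.94 ± 0.06, edgeR adjusted p = 6.6e-06), with wt at 766 and 531 CPM. Wee1, the kinase that delays entry into mitosis, moved by 0.15 ± 0.05 (edgeR adjusted p = 0.0206). Its call was lost without KO 1 (0.12, adjusted p = 0.245) and without KO 3 (0.18, adjusted p = 0.105).

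Across the transcriptome, genes with a miR-291a seed match were lower as a group. Of 14714 tested genes with an annotated 3′ UTR, 2473 (16.8%) held at least 1 match. Their median log2 fold change was -0.21, against 0.03 for the genes without, a difference of -0.24. In all, 44.4% of genes with a match were called lower and 19.9% higher, against 26.5% and 33.0% of genes without. The median went down with the number of matches, from -0.19 with 1 match (2013 genes) to -0.26 with 2 (356 genes) and -0.52 with 3 or more (104 genes). It was -0.37 in the 504 genes with an 8mer and -0.18 in the 1969 genes with a 7mer but no 8mer. Median UTR lengths rose alongside, at 2276, 3479 and 5485 bases for 1, 2 and 3 or more matches. They were 2846 bases with an 8mer and 2417 bases with a 7mer but no 8mer. Neither comparison was made within classes of UTR length, so matches and length are not told apart in them. Among genes at least 2-fold lower 24.2% held a match, and among those at least 2-fold higher 7.87% did. Their median UTR lengths were 1353 and 727 bases.

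Long UTRs hold more matches of any kind, and genes with long UTRs were lower whether or not they held this match. The median of genes without a match went from 0.17 in the shortest of 4 equal classes of UTR length to 0.06, -0.02 and -0.14 in the following ones. Genes with a match were below them in every class, at 0.00, -0.12, -0.21 and -0.24. Averaged over the classes, a comparison chosen after seeing the data, the difference was -0.16 in place of -0.24. Each class counted equally in this mean, though from shortest to longest they held 78, 312, 670 and 1413 genes with a match. In the longest class the median UTR length was 3714 bases with a match and 3130 without, so the classes do not remove length in full. These values are descriptions of gene groups, with no test.

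**Figure D3:**
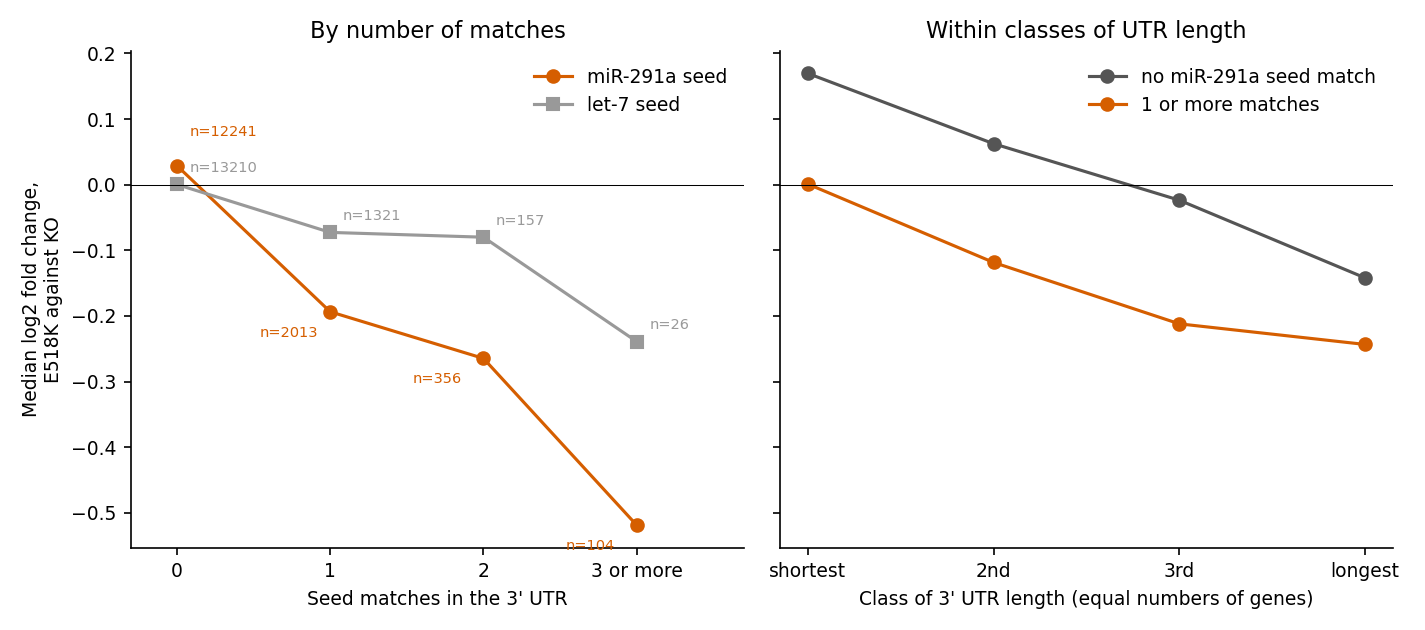
Median log2 fold change of E518K against KO (y) of genes grouped by the number of seed matches in the longest 3′ UTR (left; miR-291a in orange, let-7 in grey, with the number of genes n) and by class of UTR length (right; genes with a miR-291a match in orange, without in dark grey). The miR-291a medians go from 0.03 to -0.52 and those of let-7 from 0.00 to -0.24, the last with only 26 genes, and in every class of length the genes with a match lie lower. The left panel is not split by UTR length.

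Of 14 seed families examined in the same way, all had a lower median among genes with a match than among genes without. Since long UTRs hold more matches of any kind, this alone marks no family out. The miR-1 family, for example, was at -0.13 over all genes and at -0.04 as the mean over classes of UTR length. Over all genes the difference ranged from -0.28 for the miR-17 family to -0.08 for let-7. Averaged over classes of UTR length, miR-17 remained at -0.22, followed by miR-291a (-0.16), the miR-130 family (-0.15), miR-19 (-0.14), the miR-25 family (-0.13) and miR-26 (-0.11). The other 8 families lay between -0.04 and 0.03, with let-7 at 0.02. Since the miR-17 and miR-291a matches overlap in letters, they were also taken apart. Genes with both had a median of -0.32 (1131 genes), with miR-291a alone -0.13 (1342 genes), with miR-17 alone -0.18 (916 genes) and with neither 0.05 (11325 genes). In the same order, the median UTR lengths were 2850, 2290, 2098 and 860 bases. This split was not made within classes of UTR length, so matches and length are not told apart in it.

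**Figure D4:**
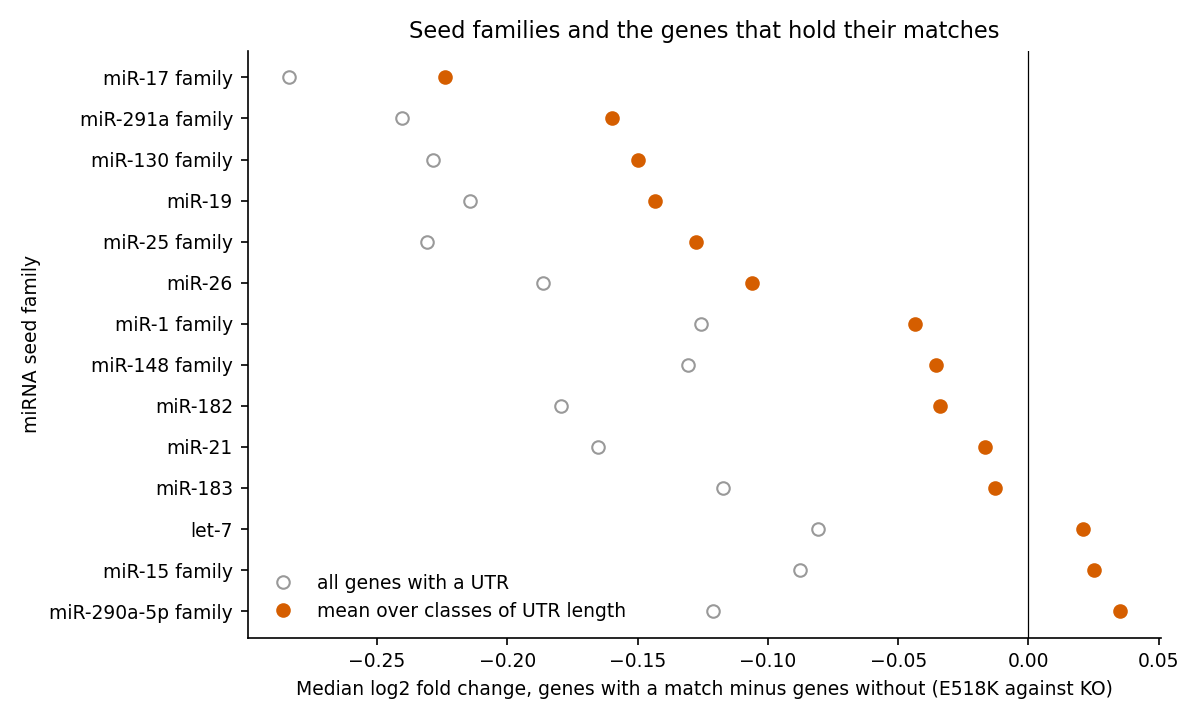
Each row is 1 of 14 miRNA seed families; the x axis is the median log2 fold change (E518K against KO) of genes with a match minus that of genes without, over all genes with a UTR (open grey) and as the mean over classes of UTR length (orange). Within classes, 6 families lie at or below -0.11 and 8 between -0.04 and 0.03.

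The largest increases included several genes that were nearly silent in KO cells. By the naming rule, the 12 largest were Lin28a, Ndufa4l2, Aire, Rassf4, Slc16a3, Dgcr8, Dnmt3l, Cldn6, Mycl, Rasal1, Tro and P2ry2. Slc16a3, the lactate exporter MCT4, was at 2.85 and 3.80 CPM in KO, 59.9 and 59.4 CPM in E518K and 210.1 and 129.9 CPM in wt (log2 fold change 4.16 ± 0.12, edgeR adjusted p = 7.87e-07). Dnmt3l, which helps the de novo DNA methyltransferases, was at 2.69 and 2.94 CPM in KO, 40.5 and 41.0 CPM in E518K and 94.0 and 147 CPM in wt (log2 fold change 3.86 ± 0.09, edgeR adjusted p = 4.96e-07). In both, the E518K clones were alike, above KO and below wt.

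Aire overlaps Dnmt3l and can share its reads; it was at 0.284 and 0.0647 CPM in KO and 5.06 and 5.94 CPM in E518K. Ndufa4l2, a mitochondrial protein known as a target of the hypoxia factor HIF1, was at 0.142 and 0.116 CPM in KO and 4.77 and 3.84 CPM in E518K, with wt at 28.2 and 11.9 CPM, and overlaps Shmt2. Cldn6, a tight-junction claudin, was at 0.375 and 0.504 CPM in KO and 6.55 and 4.55 CPM in E518K (log2 fold change 3.65 ± 0.26). The remaining members were Rassf4 (4.21 ± 0.31), Rasal1 (3.10 ± 0.19), which encodes a GTPase-activating protein for RAS, Tro (3.02 ± 0.18), which encodes the adhesion protein trophinin, and P2ry2 (2.96 ± 0.20), a receptor for nucleotides. Adjusted p in edgeR was at most 7.54e-05 for these 12 genes, leaving out Dgcr8,.

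The 12 largest decreases were Hoxa9, Tgfbr2, Zbp1, Irf2, Fut2, Pde4b, Tinagl1, Msln, Trim47, Cd109, Nfia and Inhbb. Hoxa9, a homeobox gene of the posterior body, was at 4.22 and 4.45 CPM in KO, 0.166 and 0.301 CPM in E518K and 0.138 and 0.0543 CPM in wt (log2 fold change -4.20 ± 0.25). Msln, the surface protein mesothelin, was at 66.1 and 62.5 CPM in KO, 6.39 and 7.78 CPM in E518K and 4.44 and 2.13 CPM in wt (-3.18 ± 0.10). Cd109, a membrane-bound inhibitor of TGF-beta signalling, was at 22.9 and 21.0 CPM in KO and 3.22 and 2.40 CPM in E518K (-2.97 ± 0.14). For these genes E518K lay far below KO in both clones.

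Nfia, a nuclear factor I transcription factor, changed by -2.96 ± 0.25, Inhbb, the beta B subunit of activins and inhibins, by -2.95 ± 0.16, Pde4b, a cAMP phosphodiesterase, by -3.40 ± 0.37 and Fut2, a fucosyltransferase, by -3.40 ± 0.19. Tinagl1 changed by -3.19 ± 0.13, and Trim47, which overlaps Trim65, by -2.97 ± 0.10. Of the 12 genes, 5 hold a miR-291a match in the longest 3′ UTR: Tgfbr2, Irf2, Cd109, Nfia and Inhbb. The largest edgeR adjusted p among the 12 was 0.000475.

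Lin28a rose while its paralog Lin28b fell. Of 27 genes of the LIN28 and let-7 axis, 11 were higher and 13 lower, beside 29.8% higher and 29% lower over all genes, with a median of -0.22; that median was 0.01 without KO 1 and -0.01 without E518K 15. Lin28b, which has a miR-291a match, was lower, from 30.3 and 32.4 CPM in KO to 16.4 and 15.6 CPM in E518K (log2 fold change -0.97 ± 0.07). Prtg fell from 62.2 and 64.4 to 19.2 and 18.7 CPM (-1.74 ± 0.06) and Plagl2 from 56.9 and 54.5 to 23.7 and 24.2 CPM (-1.22 ± 0.06). Both hold let-7 matches, and Plagl2 also has 2 for miR-291a.

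Hmga1, a chromatin architectural protein, rose from 584 and 552 CPM to 1189 and 1034 CPM (0.97 ± 0.07), while Hmga2 fell by 0.71 on the log2 scale (SE 0.07). Hras rose by 0.99 (SE 0.06) and Nras by 0.63 (SE 0.05) on the same scale. Igf2bp3 and Igf2bp2, which bind mRNAs, rose by 0.74 (SE 0.05) and 0.50 (SE 0.04), and Trim71, with 4 let-7 matches, by 0.32 (SE 0.04). For Lin28b, Prtg, Plagl2, Hmga1, Hmga2, Hras, Nras, Igf2bp2, Igf2bp3 and Trim71 the edgeR adjusted p did not exceed 0.000389.

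The miRNA machinery changed in both directions. Of 20 genes tested, Dgcr8 included, 9 were higher and 9 lower; without KO 1 or without KO 3 only 4 were called higher. Drosha, the nuclease partner of DGCR8, was at 219 and 228 CPM in KO and 280.3 and 275 CPM in E518K (log2 fold change 0.31 ± 0.04), and Tarbp2, a partner of Dicer, at 60.2 and 59.1 CPM in KO and 92.9 and 92.6 CPM in E518K (0.64 ± 0.05). Ago1, an Argonaute protein that holds the miRNA, was lower, at 265 and 253 CPM in KO and 153 and 147 CPM in E518K (-0.79 ± 0.05).

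The GW182 proteins Tnrc6a, Tnrc6b and Tnrc6c, which link Argonaute to mRNA decay, changed by -0.79 ± 0.05, -0.86 ± 0.05 and -0.35 ± 0.05. Tnrc6b holds 2 miR-291a matches and Tnrc6c holds 1. Ago3, with 3 matches, changed by -0.67 ± 0.10. Dicer1, the cytoplasmic nuclease, fell by 0.27 on the log2 scale (SE 0.04), and Pabpc1, the poly(A)-binding protein, rose by 0.62 (SE 0.05). Adjusted p in edgeR was at most 0.000837 for Drosha, Tarbp2, Ago1, Ago3, Tnrc6a, Tnrc6b, Tnrc6c, Dicer1 and Pabpc1.

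Of 566 tested genes whose spans hold miRNA hairpins, 181 were higher and 193 lower, with a median of -0.03. These counts are near the 29.8% higher and 29% lower over all genes. The 6 spans with the smallest p values were those of Syne2, Arsb, Tmem123, Anxa2, Lrig1 and Sh3pxd2a, all lower. Arsb, a lysosomal sulfatase, was at 21.0 and 19.05 CPM in KO and 2.87 and 2.64 CPM in E518K (-2.86 ± 0.11), and Syne2, which ties the nucleus to the cytoskeleton, at 192 and 197 CPM in KO and 73.5 and 66.8 CPM in E518K (-1.47 ± 0.06). The span of Nlrp12 (chr7:3218784-3249740) is named here after its values were seen, because it holds hairpins of the miR-290 cluster, Mir294 and Mir295 among them. Reads over it were at 403 and 368 CPM in KO, 200.2 and 191 CPM in E518K and 12.8 and 14 CPM in wt. E518K lay below KO in both clones, with a log2 fold change of -0.98 ± 0.06 (edgeR adjusted p = 4.97e-06), and both wt libraries lay far below E518K. Since the use of strand in counting is not given, reads of Nlrp12 and of the primary transcript of the miRNAs may not be told apart here.

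In the MYC network, Myc and Mycl rose and the repressors Mxd4 and Mxd1 fell. Mycl, a MYC family factor, was at 2.47 and 2.17 CPM in KO, 30.0 and 26.7 CPM in E518K and 55.7 and 55.4 CPM in wt (log2 fold change 3.61 ± 0.11, edgeR adjusted p = 4.96e-07), and E518K lay between the other groups. Mxd4, which competes with MYC for the partner MAX, was at 9.17 and 8.77 CPM in KO and 1.39 and 1.30 CPM in E518K (-2.74 ± 0.13, edgeR adjusted p = 2.45e-06), and Mxd1 at 8.94 and 8.50 CPM in KO and 4.83 and 5.31 CPM in E518K (-0.78 ± 0.11, edgeR adjusted p = 0.000469). Of 13 members, 3 were higher (5 without E518K 15) and 5 lower, with a median of -0.0041; without KO 1 only 2 were called lower, and without KO 3 only 3.

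Targets of p53 were lower in most cases. Of 23 tested, 19 were lower and 4 higher (1 higher without KO 3), with a median of -0.62. After Btg2 and Cdkn1a, the smallest p values were those of Polk, a DNA polymerase for damaged templates (36.6 and 36.2 CPM in KO, 10.5 and 11.2 CPM in E518K, -1.75 ± 0.07), and Plk2, a stress-induced kinase (32.5 and 31.5 CPM in KO, 8.68 and 9.42 CPM in E518K, -1.82 ± 0.08). Tnfrsf10b, a death receptor, changed by -0.95 ± 0.06 and Pmaip1, the killer protein NOXA, by -0.62 ± 0.05. Aen, a nuclease of apoptosis, was among the exceptions, at 87.0 and 86.5 CPM in KO and 105.6 and 106.1 CPM in E518K (0.29 ± 0.04). The largest edgeR adjusted p among Polk, Plk2, Tnfrsf10b, Pmaip1 and Aen was 0.000652.

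Immediate early genes, which respond within minutes to growth factors and stress, were also lower in most cases: 18 of 25 were lower, 6 higher (3 without KO 3), and the median was -0.72. Fos, the AP-1 partner of Jun, was at 2.79 and 2.72 CPM in KO, 0.471 and 0.438 CPM in E518K and 2.02 and 2.2 CPM in wt (-2.59 ± 0.20), so that E518K lay below both other groups. Jund went from 231 and 224 to 93.5 and 105 CPM (-1.20 ± 0.06), Klf6 from 45.4 and 47.1 to 17 and 16.6 CPM (-1.46 ± 0.06) and Egr1 from 4.35 and 4.32 to 1.58 and 1.23 CPM (-1.62 ± 0.17). Against the majority, Maff, a small MAF protein, rose from 2.52 and 2.60 to 5.02 and 4.82 CPM (0.94 ± 0.13), as did Myc. For Fos, Jund, Klf6, Egr1 and Maff the edgeR adjusted p did not exceed 0.000431.

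Among 18 feedback genes of the MAPK pathway, which the MEK inhibitor present in every culture is known to lower, 8 were higher and 7 lower. The shares over all genes were 29.8% and 29%. Etv4, a transcription factor of this pathway, was at 12.2 and 15.4 CPM in KO and 42.3 and 59.1 CPM in E518K (1.88 ± 0.20), and Dusp6, an ERK phosphatase, at 3.28 and 3.91 CPM in KO and 8.15 and 8.94 CPM in E518K (1.25 ± 0.13). Epha4, a receptor tyrosine kinase, moved the other way, from 107 and 108 to 35.7 and 41.4 CPM (-1.48 ± 0.07), as did Phlda1 (-1.22 ± 0.12). Adjusted p in edgeR was at most 0.000784 for these 4 genes.

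Control of the G1 to S transition changed in both directions: 10 of 26 genes were higher and 9 lower (6 higher without KO 1 or without KO 3). Beside Cdkn1a and Rbl2, the pocket protein p107, Rbl1, was lower, at 61.6 and 64.1 CPM in KO and 30.4 and 32.1 CPM in E518K (-1.01 ± 0.06). Cyclin D2 (Ccnd2) was at 7.43 and 8.16 CPM in KO and 2.07 and 2.29 CPM in E518K (-1.84 ± 0.13) and cyclin D1 (Ccnd1) at 486 and 489 CPM in KO and 348 and 301.9 CPM in E518K (-0.58 ± 0.07). All of these hold a miR-291a match.

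Cyclin E1 (Ccne1), which drives S-phase entry, was higher, at 94.7 and 101 CPM in KO, 158 and 166 CPM in E518K and 108 and 103 CPM in wt (0.73 ± 0.05), with both clones above both wt libraries. E2f4 rose by 0.80 (SE 0.05). In the list of DNA replication and mitosis genes, 20 of 28 were higher and 3 lower (5 lower without E518K 15), with a median of 0.32. The helicase subunit Mcm5 was at 288 and 300.4 CPM in KO and 531 and 542 CPM in E518K (0.87 ± 0.04), the loading factor Cdc6 at 58.0 and 57.9 CPM in KO and 98.7 and 102 CPM in E518K (0.80 ± 0.05) and the polymerase clamp Pcna at 386 and 402 CPM in KO and 582 and 609 CPM in E518K (0.60 ± 0.05). The proliferation marker Mki67 went the other way, from 127 and 132 CPM in KO to 67.3 and 77.3 CPM in E518K (-0.84 ± 0.07). The largest edgeR adjusted p among Rbl1, Ccnd2, Ccnd1, Ccne1, E2f4, Mcm5, Cdc6, Pcna and Mki67 was 0.000237.

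In the Hippo pathway, which restrains growth through the LATS kinases, 9 of 19 genes were lower and 4 higher. Over all genes 29% were lower and 29.8% higher. After Lats2, Vgll4, a competitor of YAP for TEAD factors, went from 41.5 and 40.7 to 23.7 and 23.7 CPM (-0.80 ± 0.06), Lats1 from 41.7 and 40.6 to 23.3 and 24.7 CPM (-0.78 ± 0.06) and Mob1b, a LATS activator, from 43.1 and 40.7 to 26.2 and 26.0 CPM (-0.68 ± 0.06). Among BCL2 proteins and caspases, 11 of 24 were lower and 8 higher. Apaf1, the core of the apoptosome, was at 97.9 and 95.4 CPM in KO and 56.4 and 60.5 CPM in E518K (-0.73 ± 0.05), while Bmf, which promotes cell death, was higher at 2.54 and 2.74 CPM in KO and 8.51 and 7.49 CPM in E518K (1.60 ± 0.13), as was Birc5, known as survivin (0.71 ± 0.05). For Vgll4, Lats1, Mob1b, Apaf1, Bmf and Birc5 the edgeR adjusted p did not exceed 3.8e-05.

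Nodal and TGF-beta signalling held 13 lower and 7 higher genes of 28, with a median of -0.27. Among receptors, Tgfbr1 went from 52.6 and 51.5 CPM in KO to 31.8 and 33.5 CPM in E518K (-0.67 ± 0.06) beside the larger change of Tgfbr2, and the transducer Smad3 from 46.8 and 46.0 to 21.2 and 21.7 CPM (-1.11 ± 0.06). Higher were Tdgf1, the Nodal co-receptor, at 200.1 and 213 CPM in KO and 369 and 456 CPM in E518K (1.00 ± 0.10), and Lefty2. Adjusted p in edgeR was at most 0.000578 for Tgfbr1, Smad3 and Tdgf1.

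Of 21 Wnt feedback and TCF genes, 9 were lower and 6 higher (2 higher without KO 1 or without KO 3). Notum, a secreted Wnt inhibitor, was at 519 and 505 CPM in KO, 235 and 216 CPM in E518K and 72.6 and 70.6 CPM in wt (-1.18 ± 0.05, edgeR adjusted p = 1.71e-06), so E518K lay between the other groups. Rnf43, which removes Wnt receptors from the surface, changed by -2.05 ± 0.15 and Tcf7l2 by -1.14 ± 0.07, whereas Tcf7 rose by 0.58 on the log2 scale (SE 0.06). The largest edgeR adjusted p among Rnf43, Tcf7l2 and Tcf7 was 6.25e-05.

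As a sum, the markers of embryonic stem cells were expressed in both groups. Lin28a, a member of this list, was however close to absent in KO, as given above, and Fut4 was too low to test. The 14 markers summed to 5989 and 6086 CPM in KO and 7538 and 7583 CPM in E518K, and 11 of the 13 tested were higher in E518K, 1 lower and 1 not called. Pou5f1 (OCT4) was at 1113 and 1073 CPM in KO and 1359 and 1342 CPM in E518K (0.31 ± 0.04), and Sox2, at 0.09 ± 0.05, was not called. Nanog changed by 0.22 ± 0.04 (edgeR adjusted p = 0.00278), a call lost without KO 1 (adjusted p = 0.052) and without KO 3 (adjusted p = 0.085). Utf1, a chromatin-bound stem cell factor, was at 115 and 118 CPM in KO, 238 and 248 CPM in E518K and 183 and 149.6 CPM in wt (1.06 ± 0.05), with E518K above both. Alkaline phosphatase (Alpl) went the other way, from 786 and 767 to 594 and 542 CPM (-0.45 ± 0.05).

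Core and naive pluripotency factors were higher in 16 and lower in 7 of 28, with a median of 0.23. Tcl1, an activator of AKT, was at 25.4 and 24.9 CPM in KO and 78.1 and 65.5 CPM in E518K (1.52 ± 0.09), Tbx3 at 155 and 153 CPM in KO and 270.5 and 272 CPM in E518K (0.82 ± 0.04) and Nr0b1 at 114 and 111 CPM in KO and 182 and 191 CPM in E518K (0.73 ± 0.05). Among the 7 lower members, the LIF receptor subunit Il6st went from 237 and 247 to 128 and 123 CPM (-0.95 ± 0.05), Socs3, a STAT3 target that dampens the pathway, from 28.0 and 30.7 to 12.8 and 12.4 CPM (-1.22 ± 0.08), and the naive factor Tfcp2l1 from 830.4 and 828 to 558 and 577 CPM (-0.55 ± 0.04). For Pou5f1, Utf1, Alpl, Tcl1, Tbx3, Nr0b1, Il6st, Socs3 and Tfcp2l1 the edgeR adjusted p did not exceed 0.000421.

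Genes of the formative and primed state, which follows the naive state in the embryo, were higher in 12 of 19 and lower in 2 (4 without E518K 8, 1 without KO 1 or without KO 3), with a median of 0.47. Beside Dnmt3l and Cldn6, Sox3 was at 0.465 and 0.466 CPM in KO and 2.33 and 1.84 CPM in E518K (2.16 ± 0.24) and Dnmt3b at 94.9 and 100.0 CPM in KO and 164 and 141 CPM in E518K (0.65 ± 0.07). Dnmt3a was lower, at 98.7 and 101 CPM in KO and 68.5 and 60.8 CPM in E518K (-0.63 ± 0.06). The de novo DNA methyltransferases thus moved apart, and their cofactor Dnmt3l had the largest change of the 3.

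Of 18 DNA methyltransferases, TET enzymes and methyl-CpG readers, 6 were higher and 10 lower, with a median of -0.32. Uhrf1, which brings the maintenance methyltransferase to DNA, was at 325 and 344 CPM in KO and 677 and 719.5 CPM in E518K (1.06 ± 0.05). Zbtb38, a reader of methylated DNA with 2 miR-291a matches, went from 98.9 and 102 to 46.7 and 53.1 CPM (-1.01 ± 0.07). Adjusted p in edgeR was at most 0.000242 for Sox3, Dnmt3b, Dnmt3a, Uhrf1 and Zbtb38. Of 18 germline genes known to be silenced by DNA methylation, 4 were higher, 5 lower and 9 not called; without KO 1 or without KO 3 only 2 were called lower.

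Genes of glycolysis were mostly higher: 20 of 25 were higher, 3 lower and 2 not called, with a median of 0.70. Aldoa was at 589 and 573 CPM in KO, 2095 and 1980 CPM in E518K and 3298 and 2666 CPM in wt (1.81 ± 0.05), and Pfkl, which encodes a phosphofructokinase, at 85.0 and 84.6 CPM in KO, 209 and 216 CPM in E518K and 586 and 413 CPM in wt (1.33 ± 0.04). The pyruvate kinase gene Pkm was at 1766 and 1757 CPM in KO, 3748 and 3674 CPM in E518K and 5393 and 4785 CPM in wt (1.08 ± 0.04). In Aldoa, Pfkl and Pkm, both E518K clones were above both KO libraries and below both wt libraries. Ldha, which makes lactate, rose by 0.89 (SE 0.04), Pgk1 by 0.85 (SE 0.04) and the glucose transporters Slc2a1 and Slc2a3 by 0.69 (SE 0.04) and 0.87 (SE 0.07) on the log2 scale.

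The exceptions included the hexokinase Hk1, at 112 and 113 CPM in KO and 70.4 and 59.2 CPM in E518K (-0.79 ± 0.08), and Pfkm, at 96.6 and 92.7 CPM in KO and 62.0 and 61.0 CPM in E518K (-0.62 ± 0.05). Of 22 HIF targets and oxygen sensors, 11 were higher and 6 lower. Bnip3, a mitophagy receptor, was at 14.6 and 13.2 CPM in KO and 51.3 and 53.5 CPM in E518K (1.91 ± 0.07), and Hif1an, which inhibits HIF1 and holds 3 miR-291a matches, at 129 and 132 CPM in KO and 55.7 and 56.7 CPM in E518K (-1.22 ± 0.05). The largest edgeR adjusted p among Aldoa, Pfkl, Pkm, Ldha, Pgk1, Slc2a1, Slc2a3, Hk1, Pfkm, Bnip3 and Hif1an was 0.000147.

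In the mixed list of ATF4, amino acid and serine-glycine genes, 29 of 38 were higher and 3 lower (1 without KO 3), with a median of 0.51. Slc7a3, a transporter of cationic amino acids, was at 78.6 and 81.4 CPM in KO, 268 and 277 CPM in E518K and 172 and 205.8 CPM in wt (1.77 ± 0.05), with E518K above both other groups. Chac1, which degrades glutathione, was at 1.25 and 1.36 CPM in KO and 8.51 and 9.34 CPM in E518K (2.77 ± 0.14), and the asparagine synthetase gene Asns at 336 and 335 CPM in KO and 560.4 and 564 CPM in E518K (0.75 ± 0.04). Sesn2, an inhibitor of mTORC1, was lower, at 179.6 and 182 CPM in KO and 127 and 117 CPM in E518K (-0.56 ± 0.05). Of 20 endoplasmic reticulum chaperone genes, 5 were higher and 8 lower; without KO 1 or without KO 3 these counts were 2 and 3, and without E518K 15 the higher count was 10.

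Cytosolic ribosomal protein genes were higher in 38 of 42 cases by modest amounts, with a median of 0.51 and none at 2-fold. Such genes have near-identical processed copies in the genome, and how the authors' counting split reads between copies is uncertain. Rplp1 was at 904 and 874 CPM in KO and 1683 and 1530 CPM in E518K (0.85 ± 0.05) and Rpl38 at 193 and 189 CPM in KO and 321 and 310.3 CPM in E518K (0.72 ± 0.04). The single lower gene was Rpl4 (-0.18 ± 0.05, edgeR adjusted p = 0.016), a call lost without KO 1 (-0.18) and without KO 3 (-0.17); without E518K 15 the lower genes were 3. Cholesterol and fatty acid synthesis genes were higher in 16 and lower in 2 of 30 (5 lower without E518K 8, 4 without E518K 15, 1 without KO 1 or without KO 3), with a median of 0.22, led by the desaturase gene Scd1 at 108 and 98.9 CPM in KO and 203 and 217 CPM in E518K (1.02 ± 0.06). For Slc7a3, Chac1, Asns, Sesn2, Rplp1, Rpl38 and Scd1 the edgeR adjusted p did not exceed 3.93e-05.

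Of the 13 protein genes of the mitochondrial genome, 10 were called lower and none higher by edgeR, with a median of -0.26. The cytochrome oxidase gene mt-Co3 was at 4590 and 4517 CPM in KO and 3286 and 3052 CPM in E518K (-0.52 ± 0.05, edgeR adjusted p = 4.71e-05) and mt-Co1 at 15622 and 15304 CPM in KO and 11888 and 10864 CPM in E518K (-0.44 ± 0.05, edgeR adjusted p = 0.000181). The count depended on the KO libraries: without KO 1 it was 3 and without KO 3 it was 4.

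Interferon-stimulated and RNA-sensing genes were lower in 20 of 31 cases and higher in 5 (3 without KO 1 or without KO 3), with a median of -0.60, and 11 of the 20 were at least 2-fold lower. Zbp1, a sensor of nucleic acids, was at 16.1 and 17.1 CPM in KO, 0.86 and 1.45 CPM in E518K and 0.304 and 0.298 CPM in wt (-3.84 ± 0.20). Irf9, part of the complex that answers type I interferon, was at 52.4 and 48.7 CPM in KO and 17.5 and 18.2 CPM in E518K (-1.50 ± 0.07); it has 2 miR-291a matches and overlaps Rnf31. Rsad2, known as viperin, went from 5.30 and 5.33 to 0.804 and 0.849 CPM (-2.68 ± 0.16) and Ifi35 from 26.4 and 24.4 to 10.5 and 9.94 CPM (-1.31 ± 0.08).

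Psmb8, an immunoproteasome subunit, was at 2.07 and 2.03 CPM in KO and 0.0416 and 0.0274 CPM in E518K, which is at most 3 counts in each library, so no fold is given; it was called lower (edgeR adjusted p = 6.71e-06). Bst2, which tethers viruses to the cell, moved the other way, from 5.54 and 5.82 to 12.7 and 10.2 CPM (1.01 ± 0.13), and so did Adar, the RNA editing enzyme (0.30 ± 0.05). Of 18 NF-kB subunits and regulators, 7 were lower (4 without KO 1 or without KO 3) and 3 higher, with Relb at 88.1 and 90.8 CPM in KO and 56.4 and 51.1 CPM in E518K (-0.74 ± 0.06). Adjusted p in edgeR was at most 0.00117 for Zbp1, Irf9, Rsad2, Ifi35, Bst2, Adar and Relb.

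Of 24 genes of the epithelial and mesenchymal states, 13 were lower and 3 higher (1 higher without KO 3), with a median of -0.58, and genes of both states were among the lower ones. The mesenchymal genes Cdh2, for N-cadherin, and Vim, for vimentin, went from 31.9 and 31.5 to 11.1 and 13.2 CPM (-1.38 ± 0.09) and from 544 and 577 to 333 and 339 CPM (-0.74 ± 0.05). Cdh1, for E-cadherin, went from 585 and 575 to 389.7 and 356 CPM (-0.64 ± 0.05). The annexin gene Anxa2 went from 45.1 and 44.6 CPM in KO to 8.21 and 9.92 CPM in E518K (-2.31 ± 0.09) and Anxa3 from 23.8 and 23.8 to 3.11 and 3.64 CPM (-2.82 ± 0.11). Cldn6, described above, was the largest exception.

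Lysosome and autophagy genes were lower in 14 and higher in 8 of 26; among genes that overlap no other, 6 were lower. Lamp2, a lysosomal membrane protein with a miR-291a match, was at 249 and 239.8 CPM in KO, 86.5 and 92.6 CPM in E518K and 49.7 and 68.0 CPM in wt (-1.45 ± 0.05). The protease gene Ctsl moved the other way (0.74 ± 0.06). The largest edgeR adjusted p among Cdh2, Vim, Cdh1, Anxa2, Anxa3, Lamp2 and Ctsl was 3.27e-05.

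Insulin-like growth factor genes were higher in 6 and lower in 3 of 14. Igfbp2, which binds these factors, was at 58.2 and 53.5 CPM in KO, 358 and 314 CPM in E518K and 1030 and 866 CPM in wt (2.59 ± 0.08, edgeR adjusted p = 1.22e-06), E518K being between the other groups, while Igfbp3 fell from 21.0 and 21.1 to 7.99 and 7.64 CPM (-1.43 ± 0.08, edgeR adjusted p = 5.29e-06). Of the genes of the nephron progenitor, from which Wilms tumours are thought to arise, 13 could be tested, 3 higher and 4 lower (2 lower without KO 1 or without E518K 15). Eya1, a transcriptional cofactor of these cells, was at 16.5 and 16.5 CPM in KO and 8.38 and 8.90 CPM in E518K (-0.93 ± 0.09, edgeR adjusted p = 4.77e-05).

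**Figure D5:**
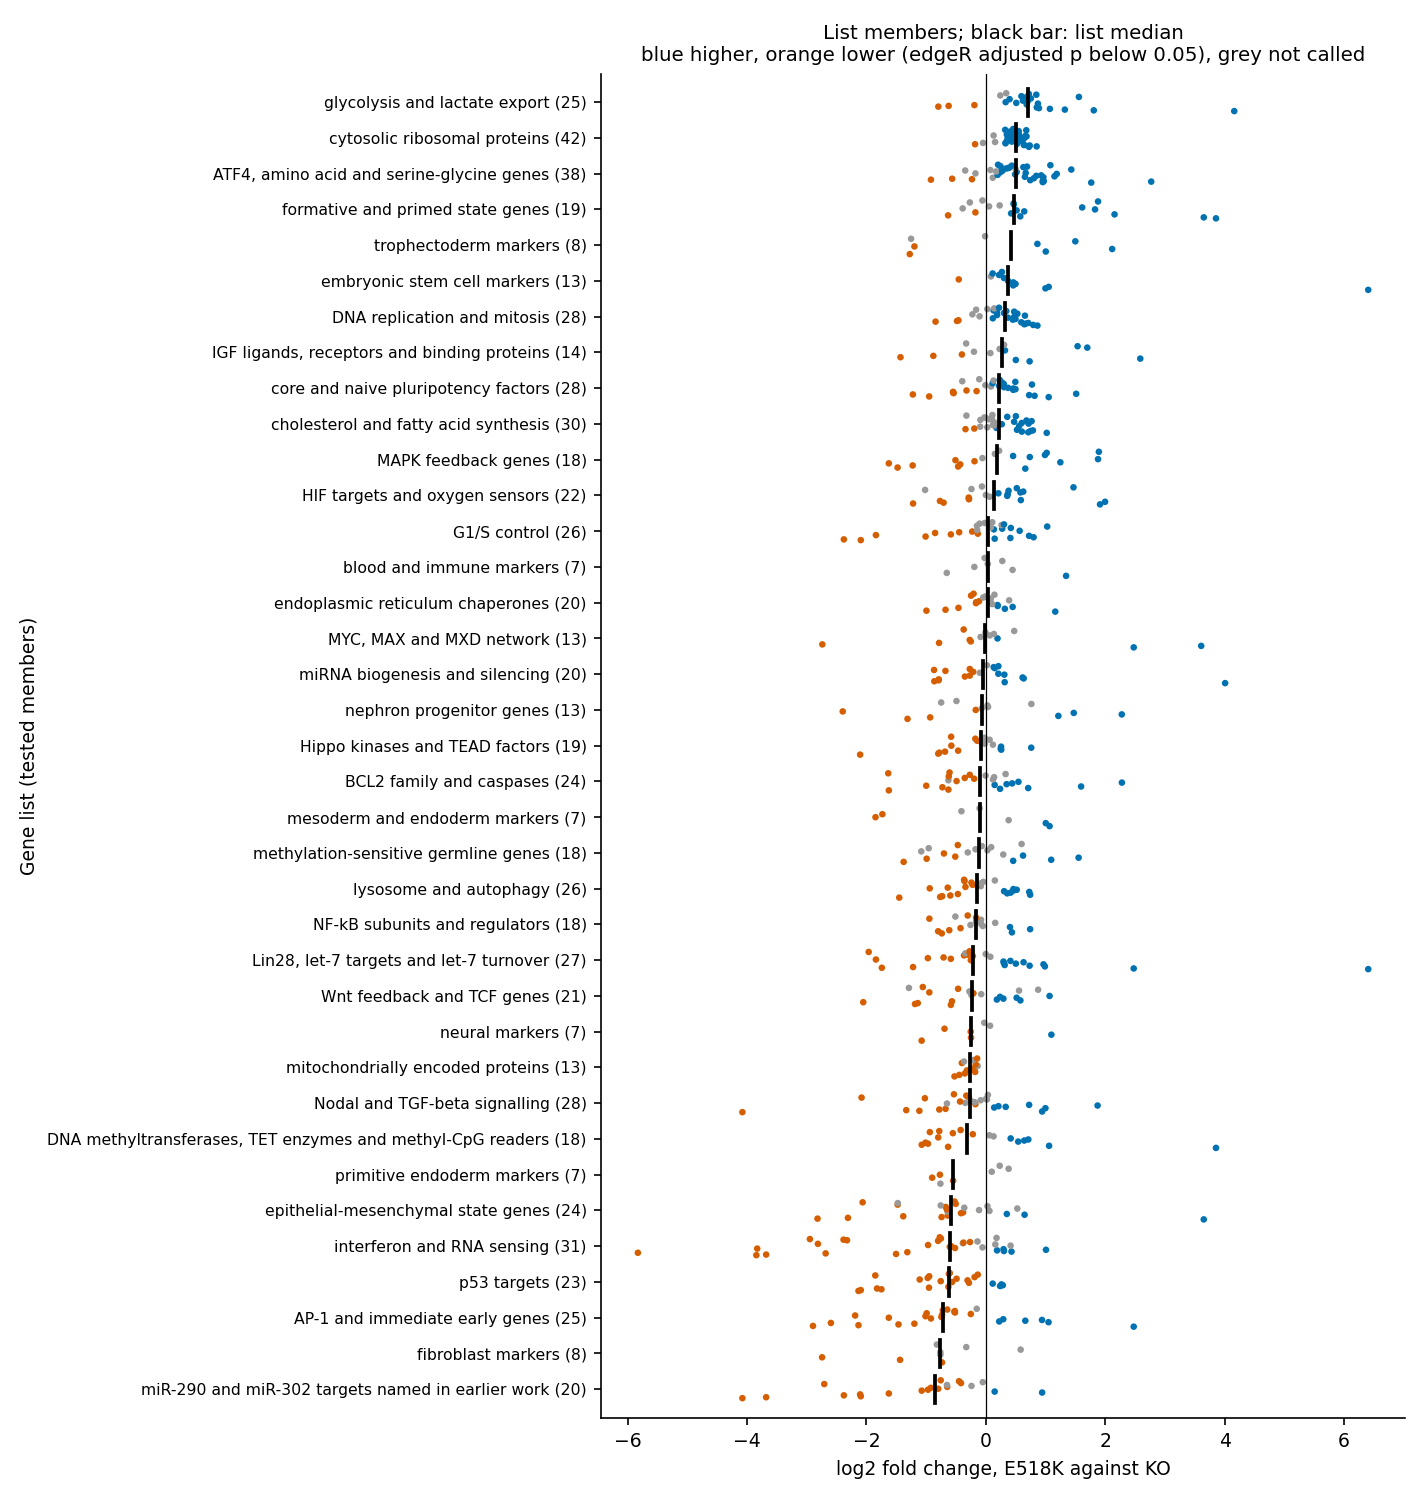
Each row is 1 of 37 gene lists with its number of tested members; points are members placed by log2 fold change of E518K against KO (x), blue where called higher, orange where called lower and grey where not called by edgeR, and the black bar is the list median. Glycolysis (0.70), ribosomal proteins (0.51) and the list of ATF4, amino acid and serine-glycine genes (0.51) have the highest medians, and the miR-290 and miR-302 targets (-0.86) the lowest.

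Markers of other cell types were checked by their summed levels. The 10 fibroblast markers summed to 9.69 to 10.8 CPM in KO and 5.93 to 7.32 CPM in E518K, with 3 of 8 tested lower (1 without KO 3, 5 without E518K 8) and none higher. The 8 blood and immune markers summed to 289 to 297 CPM in KO and 290 to 306 CPM in E518K, nearly all from Laptm5 (280.2 and 274 CPM in KO, 277 and 290.6 CPM in E518K), with 1 of 7 tested higher (0 without KO 1 or without KO 3). The 10 trophectoderm markers summed to 84.0 to 90.0 CPM in KO and 65.0 to 73.1 CPM in E518K. Of 8 tested, however, 4 were higher (3 of them at least 2-fold) and 2 lower (2 at least 2-fold), with a median log2 fold change of 0.43. Krt8, which makes up much of the sum, was at 26.8 and 28.9 CPM in KO and 11.8 and 11.3 CPM in E518K.

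The 10 primitive endoderm markers summed to 392 to 396 CPM in KO and 269 to 284 CPM in E518K; 3 of 7 tested were lower, and Gata6, Sox17 and Sox7 were too low to test. The 10 neural markers summed to 763 to 788 CPM in KO, 643 to 683 CPM in E518K and 157 to 201 CPM in wt, with 4 lower (1 without KO 3) and 1 higher (2 without E518K 15) of 7 tested. The 10 mesoderm and endoderm markers summed to 30.8 to 32.7 CPM in KO and 36.9 to 37.9 CPM in E518K, with 2 in each direction of 7 tested (1 higher without KO 1). No marker of these lists was at 0 in all 4 libraries. In bulk RNA, fewer cells of a type and less RNA per cell cannot be told apart, and the part of these markers in the results above was not tested.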

How the data were processed

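Poly(A)-selected, randomly primed RNA from mouse embryonic stem cells was sequenced in 100 bp paired reads, per the labels' protocols; the submitters' processing notes name STAR, bedtools and GRCm38.p6. The authors deposited raw counts per gene symbol and TPM for 6 libraries; the sources used here do not give the gene models behind the authors' counting, but for 98.5% of 12673 genes the length implied by count and TPM lies within 5% of the whole genomic span. The counts of 2 E518K and 2 KO libraries were fitted with edgeR 4.0.16 in R 4.3.3 (TMM factors, filterByExpr with a minimum count of 10, robust quasi-likelihood test, 2 residual degrees of freedom) and adjusted by Benjamini-Hochberg at 0.05. On simulated counts the fit recovered 100% of 2-fold and 84% of 1.5-fold changes and called 0.19% of unchanged genes. The simulation changed only 200 genes and drew independent libraries with the spread fitted to these data. It therefore cannot show how many of the calls reflect differences between clones.

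Of 21978 rows, 19576 matched a GENCODE M21 gene by symbol and 242 by a RefSeq synonym. Seed matches are the reverse complement of bases 2 to 8 of the RefSeq miRNA, in 3′ UTRs of at least 20 bases. The members, lists and alternatives were chosen with earlier results of these data known. Named by rule were Dgcr8, 5 markers, the 12 largest changes in each direction among calls that averaged 1 or more in log2 CPM, with groups that did not overlap (predicted genes passed over), the 6 smallest p values of each list, all members of lists of 12 or fewer, called members against the majority of their list, 6 spans with hairpins and the 6 largest differences between E518K clones. The following were named outside it, after their values were seen: Ago3, Arid4b, Dicer1, Drosha, Ei24, Etv4, Hmga2, Lin28b, Nanog, Nlrp12, Nr2f2, Pou5f1, Slc2a1, Slc2a3, Sox2, Gata6, Sox7, Sox17, Gbp2, Gbp3, Gbp7, Uba7, Adh7 and Dusp8. Some genes the rule names are not reported here. The 14 alternatives to each fit (DESeq2 1.42.0 and limma 3.58.1 on log2 TPM with a pseudocount of 1 among them) are given in the closing section.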

Additional observations from a re-analysis of the deposited data

How the results depend on the processing

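The number of genes called lay between 6421 (without KO 1) and 10935 (without E518K 15) over 14 alternatives to the fit, against 9530. Higher genes made up 50.6% of calls, and between 41.7% (limma on log2 TPM) and 52.7% (all 6 libraries) under the alternatives. Genes called and at least 2-fold apart numbered 2089, but 1361 with at least 100 counts in 2 libraries and 599 with limma on log2(TPM + 1), which compresses low genes, and from 1712 to 2215 with 1 library left out. DESeq2 called 8671 genes.

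Dgcr8 missed the threshold at 4.01 with the KO libraries summed (adjusted p = 0.108) and with a KO library left out (3.96 and 4.07); the range with 1 library left out was 3.45 to 4.43. Of 163 called genes named in the text, Nanog and Wee1 lost the call in the fit of all 6 libraries and with limma, and Nanog, Wee1, Rpl4 and Dgcr8 with the KO libraries summed, without KO 1 and without KO 3. No other call was lost under the alternatives that gave a value. Without an E518K library, however, the spread came only from the KO libraries, repeats of 1 clone, so those fits could hardly lose a call. With 1 library left out, Lamb3 ranged from -0.52 (without E518K 8) to 2.53 (without E518K 15) and Sox4 from -0.70 to 2.05 in the same way. The uncalled Laptm5 (-0.074) and Sox2 (-0.023) turned with limma.

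The 10 lower genes of the mitochondrial genome became 3 with the KO libraries summed, 5 among genes that overlap no other, and 3 to 13 with 1 library left out. List medians turned for the LIN28 and let-7 genes (-0.22 in the fit as reported, -0.213 without KO 3 and 0.012 without KO 1) and the primitive endoderm markers, from -0.55 to 0.18 without a filter, 0.17 with all 6 libraries, 0.17 with the KO libraries summed, 0.16 without E518K 8 and 0.10 without KO 1; the cause was not tested. The seed difference of -0.24 was -0.37 for 8mers, -0.28 among genes that overlap no other, -0.23 over all annotated UTRs, -0.27 to -0.22 with 1 library left out and -0.16 within classes of UTR length, an alternative chosen after seeing the data. No paired analysis was possible because the E518K and KO libraries share no replicate number. With 1 KO clone and 2 libraries per group, differences between clones and between genotypes cannot be told apart, and genes below about 10 counts were not tested.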

Other observations

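Gbp2, Gbp3 and Gbp7, from the guanylate-binding protein family that interferon is known to raise, were near 0 in E518K cells. They belong to no list above and were picked after their values were seen, and other genes of the family are not reported here. Gbp2 was at 3.78 and 3.65 CPM in KO, 0.0277 and 0.11 CPM in E518K and 0 and 0.0136 CPM in wt. Gbp7 was at 1.52 and 1.55 CPM in KO and 0.0555 and 0 CPM in E518K, and Gbp3 at 0.93 and 1.01 CPM in KO and 0.0277 and 0 CPM in E518K. Uba7, the activating enzyme for the ubiquitin-like protein ISG15, was at 1.67 and 2.39 CPM in KO and 0.0277 and 0.0685 CPM in E518K. Outside interferon genes, Adh7, an alcohol dehydrogenase that acts on retinol, was at 3.13 and 2.86 CPM in KO, 0 and 0 CPM in E518K and 0 and 0.0814 CPM in wt, and Dusp8, a phosphatase of stress-activated kinases, at 1.49 and 1.99 CPM in KO and 0 and 0.0548 CPM in E518K. No fold is given, since both E518K libraries held few or no counts of these genes.

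The E518K clones differed most from each other in genes of the Y chromosome and in a few others. Ddx3y was at 29.5 and 4.93 CPM in clones 8 and 15 against 34.3 and 32.9 CPM in KO, Uba1y at 15.1 and 1.29 CPM against 16.7 and 17.8 CPM, and Eif2s3y at 6.38 and 0.438 CPM against 10.2 and 8.78 CPM. All 3 were lower in clone 15 than in the other 3 libraries. Sox4, at 32.2 and 4.82 CPM in clones 8 and 15 and 7.54 and 8.12 CPM in KO, and Lamb3, at 12.5 and 1.52 CPM and 2.54 and 1.84 CPM, also had clones far apart. By chromosome, the median log2 fold change lay between -0.13 (chromosome 3) and 0.11 (chromosome 7). The exceptions were -0.78 for the 13 genes tested on Y and -0.26 for the 13 of the mitochondrial genome. Per library, medians against the KO mean were taken only over Y genes that averaged 1 or more in log2 CPM. They were -0.29 in E518K clone 8, -2.36 in E518K clone 15, -1.68 in wt clone 12 and -0.70 in wt clone 16.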
